A study of Rattus norvegicus with 19 samples.

Results

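RNA was measured around 10 rat genes that code for transcription factors of the striatal lineage: Isl1, Ebf1, Foxp1, Foxp2, Ikzf1, Meis2, Bcl11b, Six3, Sp8 and Sp9. Every row of the deposited RNA table that names one of these genes was taken, which gave 196 pairs of a gene and a transcriptionally active putative enhancer (TAPE), out of 388605 pairs, 27538 TAPEs and 17715 gene symbols in all. A TAPE is a stretch of open chromatin outside genes that carries RNA on both strands, and it is paired with each gene whose start site lies within 1 Mb of its centre. The 196 pairs hold 196 different TAPEs, so no TAPE lay within reach of more than 1 of these genes. Meis2 had 31 TAPEs, Ebf1 33, Sp9 28, Foxp1 24, Bcl11b 19, Sp8 19, Six3 14, Foxp2 10, Ikzf1 10 and Isl1 8. All positions are those of the Rn6 assembly used by the authors unless another build is named.

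The libraries were total RNA-seq, depleted of ribosomal RNA, from primary neurons of Sprague-Dawley rats dissected at embryonic day 18 from cortex, hippocampus or striatum and grown for 11 days in vitro. On that day the cultures received either Neurobasal medium as vehicle or potassium chloride (KCl), which depolarises neurons, for 1 h. Cortex and hippocampus each gave 3 vehicle and 3 KCl libraries, and striatum gave 4 vehicle and 3 KCl libraries by their titles, 19 in all. The study's supplementary methods instead list 3 vehicle and 4 KCl files for striatum, and the titles were followed here. The KCl concentration is given as 25 mM in the sample labels and as 10 mM in the series text. The tissue label of cortex vehicle replicate 3 names striatum while its title names cortex. Its TAPE profile was closest to the other cortical libraries, as all 19 libraries were closest to the region in their titles. The study's methods call the replicates biological, and the labels do not say which libraries came from separate animals or cultures, so the p-values measure the spread between these libraries.

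The striatum is built mostly of GABAergic medium spiny neurons born in the lateral ganglionic eminence, and the factors studied here act along that path. Meis2, Six3, Sp8 and Sp9 are active in progenitors and young neurons of the eminence, Bcl11b (CTIP2) and Foxp1 are needed for medium spiny neurons to mature, and Isl1 and Ebf1 mark the direct-pathway branch while Six3, Sp9 and Ikzf1 (Ikaros) are tied to the indirect-pathway branch. Several of them also work outside the striatum: Bcl11b and Foxp2 in deep-layer cortical neurons, Sp8 and Sp9 in interneurons, Isl1 in cholinergic neurons, and Ikzf1 in lymphocytes. Enhancers that are active are often transcribed, and their RNA can be followed as a readout of the element.

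Sequencing totals ran from 46.4 to 72.5 M reads per library, of which 47431 to 83272 lay in TAPEs and 187 to 535 in the 196 TAPEs of these loci. TAPE RNA is given in CPKM, reads per kilobase of TAPE scaled to 1 M library reads. The median TAPE of these loci held 10.5 reads summed over the 19 libraries (14 over all TAPEs), and 139 of the 196 (70.9%, against 61.5% of all TAPEs) held fewer than 20. Both mates of a fragment were mostly counted, reads without molecular identifiers are not independent molecules, and a single TAPE at 0 in a library is within reach of counting error. Values in these bulk cultures cannot tell fewer cells of a type from less RNA per cell.

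The sequences just before the start sites of 7 of the 10 genes were at hand from RefSeq (build GRCr8, 250 bases before the start, strand of the gene). Foxp2, Meis2 and Bcl11b were the others. The promoters of Sp8 and Sp9 are shown first because these paralogs each had a striatal TAPE less than 10 kb from their start, and because they share their longest common run of letters, 15 bases, printed in capitals. No other promoter of the 33469 in the table held that run, so it occurred in 0.00598% of them. It lay 148 bases before the start of Sp8 and 176 bases before that of Sp9.

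Sp8, chr6:145958969-145959218, plus strand: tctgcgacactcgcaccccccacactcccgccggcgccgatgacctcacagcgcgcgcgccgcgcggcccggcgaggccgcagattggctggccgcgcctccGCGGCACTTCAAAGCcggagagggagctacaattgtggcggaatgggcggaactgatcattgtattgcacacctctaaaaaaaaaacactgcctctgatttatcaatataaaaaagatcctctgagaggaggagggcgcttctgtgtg
Sp9, chr3:78554095-78554344, plus strand: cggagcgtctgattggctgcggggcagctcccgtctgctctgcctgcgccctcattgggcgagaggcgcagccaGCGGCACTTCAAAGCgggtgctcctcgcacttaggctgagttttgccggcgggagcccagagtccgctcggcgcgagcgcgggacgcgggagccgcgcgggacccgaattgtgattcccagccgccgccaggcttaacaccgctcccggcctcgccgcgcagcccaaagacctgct

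The same windows were searched on both strands for 5 short motifs of the factor families. These were TGTTTAC for forkhead proteins, TGACAG for Meis proteins, CTAATG and TAATTA for homeodomains, and GGGCGG for Sp proteins. Foxp1 held TGTTTAC, 164 bases before its start, which 3.21% of all promoters hold. Six3 held TGACAG, 148 bases before its start (15.8% of all promoters), and CTAATG on the reverse strand, 19 bases before it (7.48%). Sp8 held GGGCGG 104 bases before its start (30.5%). TAATTA (4.86% of all promoters) was in none of the 7 windows. No motif found overlapped another. The promoters of Foxp1 and Six3, whose loci held the strongest and the most striatal TAPE RNA below, are printed with these motifs in capitals. Foxp1 spans 691302 bp in GRCr8 and 328012 bp in the deposited model. Its start here may thus differ from the start used for distances below. Six3 lies on the minus strand in GRCr8 and on the plus strand in Rn6.

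Foxp1, chr4:133353281-133353530, minus strand: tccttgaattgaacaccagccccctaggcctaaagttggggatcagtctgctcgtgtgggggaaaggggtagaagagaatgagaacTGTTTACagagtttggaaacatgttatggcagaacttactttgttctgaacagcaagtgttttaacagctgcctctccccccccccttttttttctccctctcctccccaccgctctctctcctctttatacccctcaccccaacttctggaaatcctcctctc
Six3, chr6:14796257-14796506, minus strand: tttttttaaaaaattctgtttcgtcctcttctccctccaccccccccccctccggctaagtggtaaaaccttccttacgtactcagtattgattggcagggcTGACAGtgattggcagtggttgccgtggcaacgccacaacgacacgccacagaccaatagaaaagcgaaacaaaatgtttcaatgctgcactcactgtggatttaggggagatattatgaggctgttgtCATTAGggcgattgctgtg

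The first question was whether RNA of the genes themselves marked the striatal cultures. Gene values are not columns of the deposited table, so the deposited correlations of a gene with TAPEs of known CPKM were used to solve for its RNA in each library, and whole reads were recovered from it for all 10 genes. They are the smallest whole numbers that give each profile, so the gene levels below, in RPM (reads scaled to 1 M library reads), hold up to a whole-number factor per gene, and levels are not compared between genes. RNA of 9 of the 10 genes was higher in striatum than in the other regions (exact permutation test of 7 against 12 libraries, two-sided, adjusted p = 9.73e-05 for each, the smallest adjusted value that the test gave; 28.1% of 16136 genes were higher). In each of these 9 genes every striatal library lay above all 12 others, which held for 13.5% of all genes. The exception was Ikzf1.

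Isl1, the LIM-homeodomain factor of direct-pathway and cholinergic neurons, lies on chromosome 2 (48487736 to 48501436, minus strand). It had 0 to 2 reads in each cortical library, 0 to 3 in each hippocampal library and 307 to 454 in each striatal library. Its level in striatum was 7.17 ± 0.756 RPM (SD, n = 7), whereas cortex had 0.0177 ± 0.0199 and hippocampus 0.0201 ± 0.0227 (6 libraries each). The log2 difference was 8.63 ± 0.49 (SE) to cortex and 8.44 ± 0.49 to hippocampus (limma voom, adjusted p = 6.19e-13 and 6.97e-13), and it rests on 6 reads in all cortical and 7 in all hippocampal libraries. Ebf1, which directs the differentiation of direct-pathway neurons (chromosome 10, 23661013 to 24050209, plus strand), had 4 to 29 reads in each library outside striatum and 288 to 451 in each striatal library. Its mean of 6.67 ± 0.921 RPM in striatum was 45.7-fold that in cortex and 26.4-fold that in hippocampus. Neither Isl1 nor Ebf1 differed between cortex and hippocampus beyond its error (log2 −0.20 ± 0.69 and −0.64 ± 0.47, adjusted p = 0.826 and 0.255).

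Six3 (chromosome 6, 8886591 to 8889925, plus strand) had 19.3 ± 1.37 RPM in striatum, with 17, 19.4 and 21.1 as the lowest, median and highest library. In hippocampus it had 0.192 ± 0.0342 and in cortex 0.0746 ± 0.0768, so that the lowest striatal library stood 73.1-fold above the highest library of the other regions. Sp9 (chromosome 3, 59981959 to 59984489, plus strand) had 16.6 ± 2.32 in striatum, 2.21 ± 0.368 in hippocampus and 0.718 ± 0.147 in cortex. For both genes hippocampus was above cortex (log2 1.89 ± 0.52 for Six3, adjusted p = 0.00340, and 1.64 ± 0.23 for Sp9, adjusted p = 2.1e-06; 29.0% of 12825 genes were lower in cortex than in hippocampus). Sp8, the paralog of Sp9 on chromosome 6 (146784915 to 146787518, plus strand), showed the smallest separation of the 3: 3.27 ± 0.452 in striatum, 1.29 ± 0.177 in cortex and 1.07 ± 0.260 in hippocampus, with the lowest striatal library 1.64-fold above the highest other one. Cortex and hippocampus did not differ beyond error in Sp8 (log2 0.30 ± 0.17, adjusted p = 0.148).

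The remaining factors were plainly transcribed in cortex as well. Foxp2, a forkhead repressor of striatal and deep cortical neurons (chromosome 4, 41364441 to 41942023, plus strand), fell in steps from 134 ± 11.4 RPM in striatum to 28.8 ± 2.79 in cortex and 1.51 ± 0.214 in hippocampus. Meis2, a TALE homeodomain factor (chromosome 3, 107559997 to 107760589, minus strand), had 530.0 ± 21.4, 175 ± 21.4 and 37.5 ± 3.56 in the same order. Bcl11b, a zinc finger factor of medium spiny and corticospinal neurons (chromosome 6, 131834097 to 131926272, minus strand), had 224 ± 8.99, 94.9 ± 2.43 and 39.9 ± 3.69. Foxp1, the forkhead partner of Foxp2 (chromosome 4, 131366744 to 131694755, minus strand), had 146 ± 10.8, 75.5 ± 4.57 and 40.5 ± 4.46. In these 4 genes the order striatum, cortex, hippocampus held without overlap of libraries (every cortical library was above all hippocampal ones for 13.6% of genes), and cortex was above hippocampus by a log2 of 4.25 ± 0.19, 2.22 ± 0.08, 1.26 ± 0.05 and 0.91 ± 0.07 (adjusted p = 9.43e-15, 4.56e-16, 8.42e-16 and 9.96e-11; 28.6% of 12825 genes were higher in cortex than in hippocampus). By limma voom the 9 genes with enough reads were all higher in striatum than in each other region, which held for 27.6% of 12825 genes.

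Ikzf1 (chromosome 14, 91782354 to 91867424, plus strand) had 0 to 4 reads in any library, 1 in all of cortex, 8 in hippocampus and 10 in striatum. No regional difference was detectable at this depth (exact permutation test, adjusted p = 0.310). Of 9 listed markers of microglia and other immune cells, 7 could be solved. Of these, 1 (Itgam) was lower in striatum and none was higher, while 26.8% of all genes were lower and 28.1% higher. The markers were near the floor, the highest regional mean being 0.691 RPM (Cd68 in cortex). P2ry12 was at 0 in every striatal library, at 0.00497 ± 0.00773 RPM in cortex and at 0.00569 ± 0.00882 in hippocampus.

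**Figure D1:**
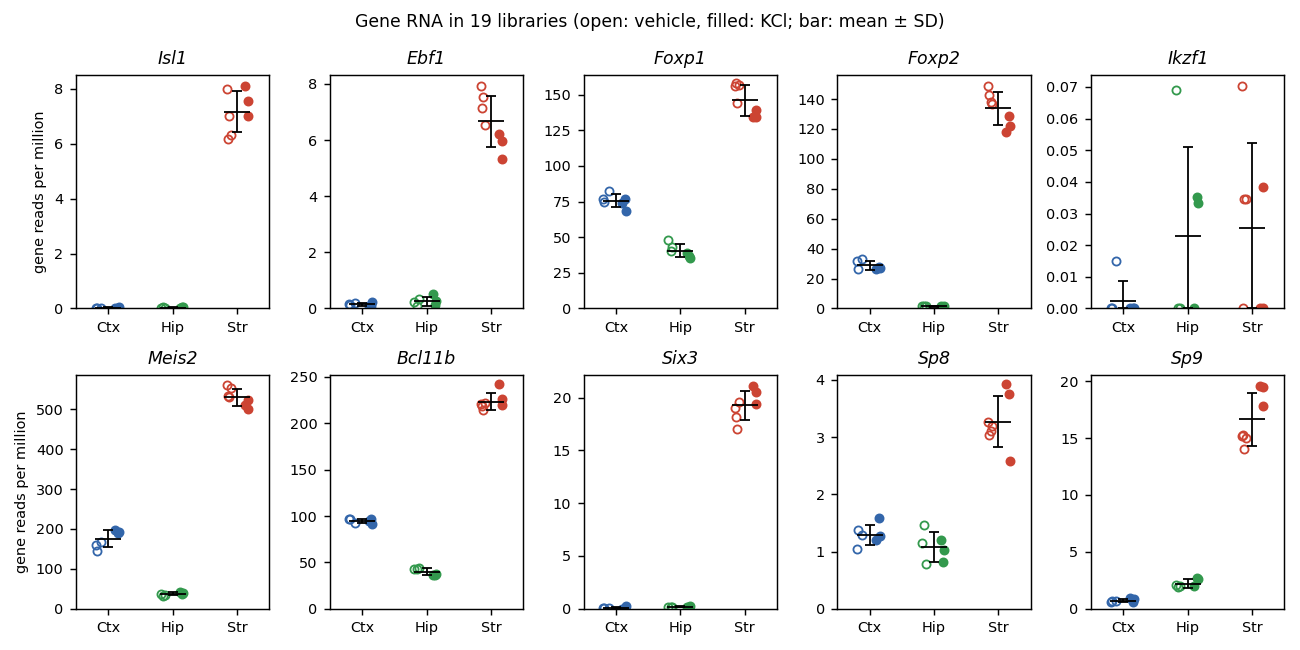
Recovered gene RPM (vertical axis, linear from 0) of the 10 genes in cortex (Ctx), hippocampus (Hip) and striatum (Str). Open circles are vehicle and filled circles KCl libraries, and bars give mean ± SD over 6, 6 and 7 libraries with the lower arm ended at 0. The striatal libraries stand above all others for every gene except Ikzf1, whose libraries hold 0 to 4 reads.

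The next question was how far this regional pattern was shared by the TAPEs around each gene. Counted over all 196 TAPEs, with no filter, the mean CPKM was highest in striatum at 97 (49.5%), in cortex at 52 and in hippocampus at 47, while 33.7% of all TAPEs were highest in striatum. Reads were found in striatum only at 14 (7.14%, against 2.76% of all TAPEs), and every striatal library lay above all others at 3 (1.53%, against 0.635%). The share of a TAPE's RNA found in striatum was also computed, as the striatal mean over the sum of the 3 regional means, for TAPEs with at least 20 reads. Its median was 43.6% over 57 TAPEs of these loci and 32.8% over 10595 TAPEs of the table, and it was above 50% at 21 of the 57 (36.8%) against 20.3% of all. The share differed widely between loci, with medians of 68.7% at Six3 (3 TAPEs), 54.8% at Foxp1 (7), 52.8% at Sp9 (9), 49.2% at Ebf1 (3), 42.6% at Meis2 (12), 39.0% at Sp8 (7), 27.5% at Bcl11b (7), 18.3% at Isl1 (3) and 16.5% at Foxp2 (5).

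**Figure D2:**
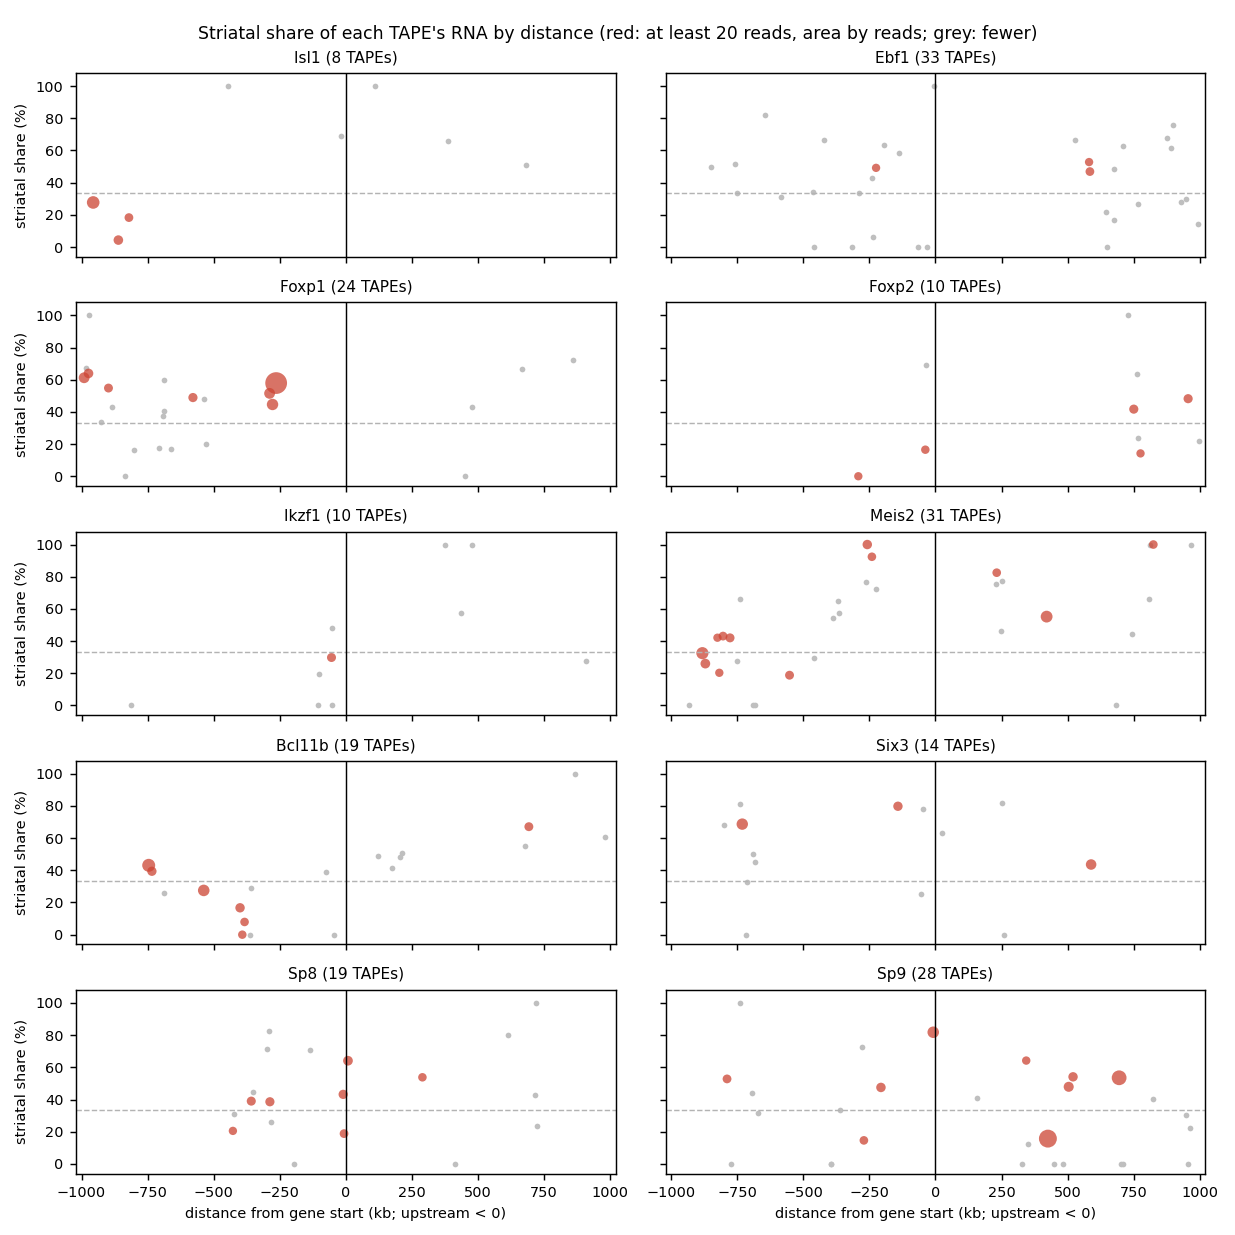
Share of each TAPE's RNA found in striatum (vertical axis, %) against its distance from the gene's start site (horizontal axis, kb, upstream negative) for the 10 loci. Red points are TAPEs with at least 20 reads over the 19 libraries, with area growing with reads, grey points those with fewer, and the dashed line marks equal shares. Among the red points, those above 80% belong to Sp9 and Meis2, and none of Isl1 or Foxp2 is above 50%.

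The main region test was run on 12 of the 196 TAPEs, those with a mean of at least 0.05 CPKM over all libraries (1870 of 27538 TAPEs passed). A TAPE that is transcribed in 1 region passes this filter through that region alone, so the calls are a description of 12 TAPEs and not of the 196. RNA of 7 of the 12 depended on region (limma F-test on log2(CPKM + 0.05), Benjamini-Hochberg over 1870 TAPEs; background 48.8%). Of these, 5 were higher in striatum than in each other region (background 16.7%), 3 with the pairwise p-values adjusted as well (background 13.7%). In vehicle libraries alone 3 were selective (background 11.7%), and in KCl libraries alone 3 (background 9.73%). Of the other calls, 1 was lowest in striatum (background 12.1%), and 1 was highest in cortex. Without the filter, 12 of 196 depended on region (background 7.36%) and 9 were selective for striatum (background 2.82%). The log2 differences below are on this scale and understate the change of low TAPEs.

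Foxp1 held the most RNA. Its TAPE 264 kb upstream (chromosome 4, 131956666 to 131960666) is nearest to the gene, and it had 2092 reads, 78.8% of all TAPE reads of the locus. CPKM there was 0.163, 0.177 and 0.223 in the lowest, median and highest hippocampal library, 0.294, 0.402 and 0.517 in cortex, and 0.675, 0.788 and 0.962 in striatum. The 3 regions did not overlap and followed the order of Foxp1 RNA itself. Striatum was above cortex by a log2 of 0.92 ± 0.15 (SE) and above hippocampus by 1.88 ± 0.15, and cortex was above hippocampus by 0.96 ± 0.15 (limma, F-test adjusted p = 2.8e-11). The deposited Foxp1 gene model spans 328012 bp and that of RefSeq GRCr8 691302 bp, and whether this TAPE and the 2 next to it lie within the longer model was not tested.

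Farther out, the TAPE 990 kb upstream of Foxp1 had a median of 0.0232 CPKM in cortex (0 to 0.0531), 0.0339 in hippocampus (0 to 0.0664) and 0.0485 in striatum (0.0339 to 0.222). Striatal libraries overlapped the others, and the call (log2 0.81 ± 0.27 over cortex and 0.71 ± 0.27 over hippocampus, adjusted p = 0.0203) was lost without striatum vehicle replicate 8 (adjusted p = 0.0802) or without striatum KCl replicate 7 (adjusted p = 0.0567). The TAPEs 278 and 289 kb upstream, beside the leading one, did not pass the test (adjusted p = 0.471 and 0.200), although their means were also highest in striatum (0.0814 ± 0.0588 and 0.0841 ± 0.0786 CPKM). Summed over all 24 TAPEs, RNA of the Foxp1 locus was 3.97 ± 0.683 RPM in striatum, 2.01 ± 0.247 in cortex and 1.11 ± 0.140 in hippocampus, with every striatal library above all others. Without the 264 kb TAPE the sums were 0.753 ± 0.271, 0.394 ± 0.119 and 0.380 ± 0.0881, and the libraries overlapped.

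Meis2 showed the widest set of striatal TAPEs. None of its 31 TAPEs lay within 100 kb of the start, and 11 of the 13 between 100 and 500 kb were highest in striatum, against 7 of the 18 beyond 500 kb. The nearest, 224 kb upstream, had 8 reads in striatum, 2 in cortex and 1 in hippocampus. The TAPE 258 kb upstream (chromosome 3, 108017532 to 108019307) had 42 reads in striatum and 0 in the 12 other libraries. Its CPKM was 0.0595, 0.0681, 0.155 and 0.0584 in the 4 striatal vehicle libraries and 0.0213, 0.0104 and 0.0540 in the 3 KCl libraries, so every striatal library was above all others. Against 3 reads over the 12 libraries, the level in striatum was at least 26.4-fold higher. A neighbour 240 kb upstream had 22 reads in striatum, 2 in cortex and 0 in hippocampus. On the other side of the gene, a TAPE 824 kb downstream had 25 reads in 6 of the 7 striatal libraries and 0 elsewhere, at least 15.7-fold higher against the same floor.

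Those 3 Meis2 TAPEs were below the filter and were called without it, at log2 differences to cortex of 1.05 ± 0.19, 0.67 ± 0.20 and 0.59 ± 0.16 (limma, F-test adjusted p = 2.98e-05, 0.0121 and 0.0110). The TAPE 420 kb downstream (chromosome 3, 107339034 to 107341235) passed the filter. It ran from 0.0133 to 0.0728 CPKM in cortex (median 0.0544), from 0 to 0.0658 in hippocampus (0.0231) and from 0.0627 to 0.146 in striatum (0.0857). Striatal and other libraries overlapped slightly, and the differences were 0.60 ± 0.24 to cortex and 0.90 ± 0.24 to hippocampus (adjusted p = 0.00655). In vehicle libraries alone the call was lost (adjusted p = 0.206). The TAPE with the most reads of the locus, 881 kb upstream with 155 reads, was at the same level in the 3 regions within its error (0.0578 ± 0.0363 CPKM in striatum, 0.0595 ± 0.0240 in cortex and 0.0607 ± 0.0360 in hippocampus; adjusted p = 0.971). The locus sum was 1.02 ± 0.184 RPM in striatum, 0.302 to 0.772 in cortex and 0.401 ± 0.0880 in hippocampus, again without overlap, also without the TAPE with the most reads. Within 500 kb the ratio of striatum to cortex was 4.23, against 1.79 over all 31 TAPEs.

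Six3 had no TAPE above the filter, and 10 of its 14 TAPEs were highest in striatum. The TAPE 731 kb upstream (chromosome 6, 8154344 to 8157554) had 78 reads in striatum, 25 in cortex and 10 in hippocampus, and CPKM of 0.0108, 0.0548 and 0.155 in the lowest, median and highest striatal library. Other libraries reached 0.0367, so 6 of the 7 striatal libraries lay above all of them. Nearer the gene, the TAPE 142 kb upstream had 32 reads in striatum, 6 in cortex and 2 in hippocampus, and was at 0 in 2 striatal libraries. Both of these TAPEs were called when the filter was left out (log2 0.65 ± 0.22 and 0.54 ± 0.20 to cortex, limma, F-test adjusted p = 0.0102 and 0.0471). The nearest, 25.3 kb downstream, had 4 reads in striatum, 2 in hippocampus and 0 in cortex. The locus sum, 0.508 ± 0.185 RPM in striatum against 0.202 ± 0.117 in cortex and 0.119 ± 0.0260 in hippocampus, was above hippocampus in every striatal library and overlapped with cortex.

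At Sp9, TAPEs with opposite regional patterns lay around the gene. Its nearest TAPE, 8.35 kb upstream (chromosome 3, 59972614 to 59974611), had 99 reads in striatum, 8 in cortex and 13 in hippocampus. CPKM was 0.0951, 0.129 and 0.182 in the lowest, median and highest striatal library, and at most 0.0276 in cortex and 0.0431 in hippocampus. Every striatal library was above all others, at log2 differences of 1.60 ± 0.21 to cortex and 1.42 ± 0.21 to hippocampus (limma, F-test adjusted p = 1.93e-07). The TAPE 425 kb downstream (chromosome 3, 60405540 to 60408905), with 910 reads the second most transcribed of the 196, went the other way. It had 0.260, 0.428 and 0.486 CPKM in the lowest, median and highest cortical library, 0.0990, 0.175 and 0.353 in hippocampus and 0.0931, 0.113 and 0.146 in striatum.

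All cortical libraries were thus above all striatal ones at that TAPE, and striatum was lower by 1.44 ± 0.21 than cortex and by 0.61 ± 0.21 than hippocampus on the log2 scale (F-test adjusted p = 3.9e-06). It correlated best with Wipf1 (r = 0.690), an actin regulator gene, among its 12 paired genes, and Sp9 ranked 11 of 12 there (r = −0.716). The TAPE 695 kb downstream had striatal values of 0.185, 0.162, 0.410 and 0.202 CPKM in vehicle and 0.0582, 0.0967 and 0.0709 in KCl libraries, and 0.0272 to 0.106 elsewhere. Vehicle libraries were above, and KCl libraries within, the range of the other regions. Its region call (log2 0.62 ± 0.26 to cortex and 0.76 ± 0.26 to hippocampus, adjusted p = 0.0323) was lost without any single striatal vehicle library or without hippocampus KCl replicate 2 (adjusted p from 0.0568 to 0.124). Summed over 28 TAPEs the Sp9 locus did not separate striatum (1.56 ± 0.429 RPM) from cortex (1.92 ± 0.293) or hippocampus (1.33 ± 0.442). Without the 425 kb TAPE, which held 51.0% of the reads, the means were 1.17 ± 0.439, 0.556 ± 0.130 and 0.606 ± 0.164, with overlap.

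Sp8 had TAPEs close by on either side. The one 7.67 kb downstream had 32 reads in striatum, 11 in cortex and 6 in hippocampus, with CPKM of 0.0312 to 0.0855 in striatum and 0 to 0.0327 elsewhere. It was called without the filter (log2 0.55 ± 0.20 to cortex and 0.69 ± 0.20 to hippocampus, limma, F-test adjusted p = 0.0311). The nearest, 7.14 kb upstream, had 16 reads in cortex, 6 in hippocampus and 5 in striatum. The locus sum was 0.433 ± 0.111 RPM in striatum, 0.304 ± 0.140 in cortex and 0.226 ± 0.133 in hippocampus, with overlap.

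Around Bcl11b, TAPEs differed in their regional pattern. The TAPE with the highest correlation to the gene, 692 kb downstream (r = 0.628), had 20 reads in striatum, 8 in cortex and 2 in hippocampus, a striatal share of 67.1%. Striatum had the highest mean at 5 of the 8 TAPEs beyond 500 kb and at 8 of all 19. The nearest, 46.2 kb upstream, had 4 reads, all cortical. The TAPE 538 kb upstream (chromosome 6, 132463229 to 132464990) had 0.0704, 0.131 and 0.166 CPKM in the lowest, median and highest cortical library, 0 to 0.0201 in hippocampus and 0 to 0.114 in striatum. Cortex was higher than hippocampus by a log2 of 1.46 ± 0.25, and striatum was lower than cortex by 0.84 ± 0.24 (limma, F-test adjusted p = 6.46e-05). It correlated better with Eml1 (r = 0.725) than with Bcl11b (r = 0.0941). The TAPE with the most reads, 746 kb upstream, was at 0.102 ± 0.0415 CPKM in striatum, 0.0637 ± 0.0272 in cortex and 0.0712 ± 0.0320 in hippocampus (adjusted p = 0.269). Within 500 kb the locus held 29 reads in striatum, 35 in hippocampus and 85 in cortex, and over 1 Mb its sum was 0.549 ± 0.171 RPM in striatum, 0.704 ± 0.0620 in cortex and 0.304 ± 0.101 in hippocampus.

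The loci of Isl1, Ebf1, Foxp2 and Ikzf1 held few reads, whatever the level of the gene. Isl1 had 4 TAPEs within 500 kb with 23 reads in striatum, 2 in cortex and 3 in hippocampus, among them the TAPE 448 kb upstream with 10 reads, all from 2 striatal libraries. Its nearest TAPE, 18.2 kb upstream, had 6 reads in all. The TAPE with the most reads, 956 kb upstream, was at 0.0879 ± 0.0423 CPKM in striatum, 0.0929 ± 0.0755 in cortex and 0.137 ± 0.0739 in hippocampus (limma, F-test adjusted p = 0.408), and it correlated best with Parp8 (r = 0.325). Ebf1 was the only gene of the table within 1 Mb for all of its 33 TAPEs, which held 131 reads in striatum, 86 in cortex and 86 in hippocampus. None had more than 27 reads, and the nearest, 6.90 kb upstream, had 4 reads, all striatal. The Ebf1 TAPE with the highest r (0.458), 898 kb downstream, had 13 reads in striatum, 2 in cortex and 2 in hippocampus.

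At Foxp2 the sums were 0.176 ± 0.0728 RPM in striatum, 0.163 ± 0.0923 in cortex and 0.160 ± 0.0724 in hippocampus, while the gene's RNA in striatum was 88.5-fold that in hippocampus. The nearest Foxp2 TAPE, 36.5 kb upstream, had 13 reads in striatum, 6 in cortex and 0 in hippocampus, and the one 292 kb upstream had 14 in hippocampus, 6 in cortex and 0 in striatum. Ikzf1 TAPEs held 93 reads, 27 of them striatal, and the nearest, 51.4 kb upstream, had 8 reads, all in cortex vehicle replicate 3. The one with the highest r (0.291), 107 kb upstream, had 7 reads in hippocampus, 2 in cortex and 0 in striatum. Over the 10 loci, 2 sums (Foxp1 and Meis2) had every striatal library above all others, and 3.84% of 17647 gene loci of the table did.

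**Figure D3:**
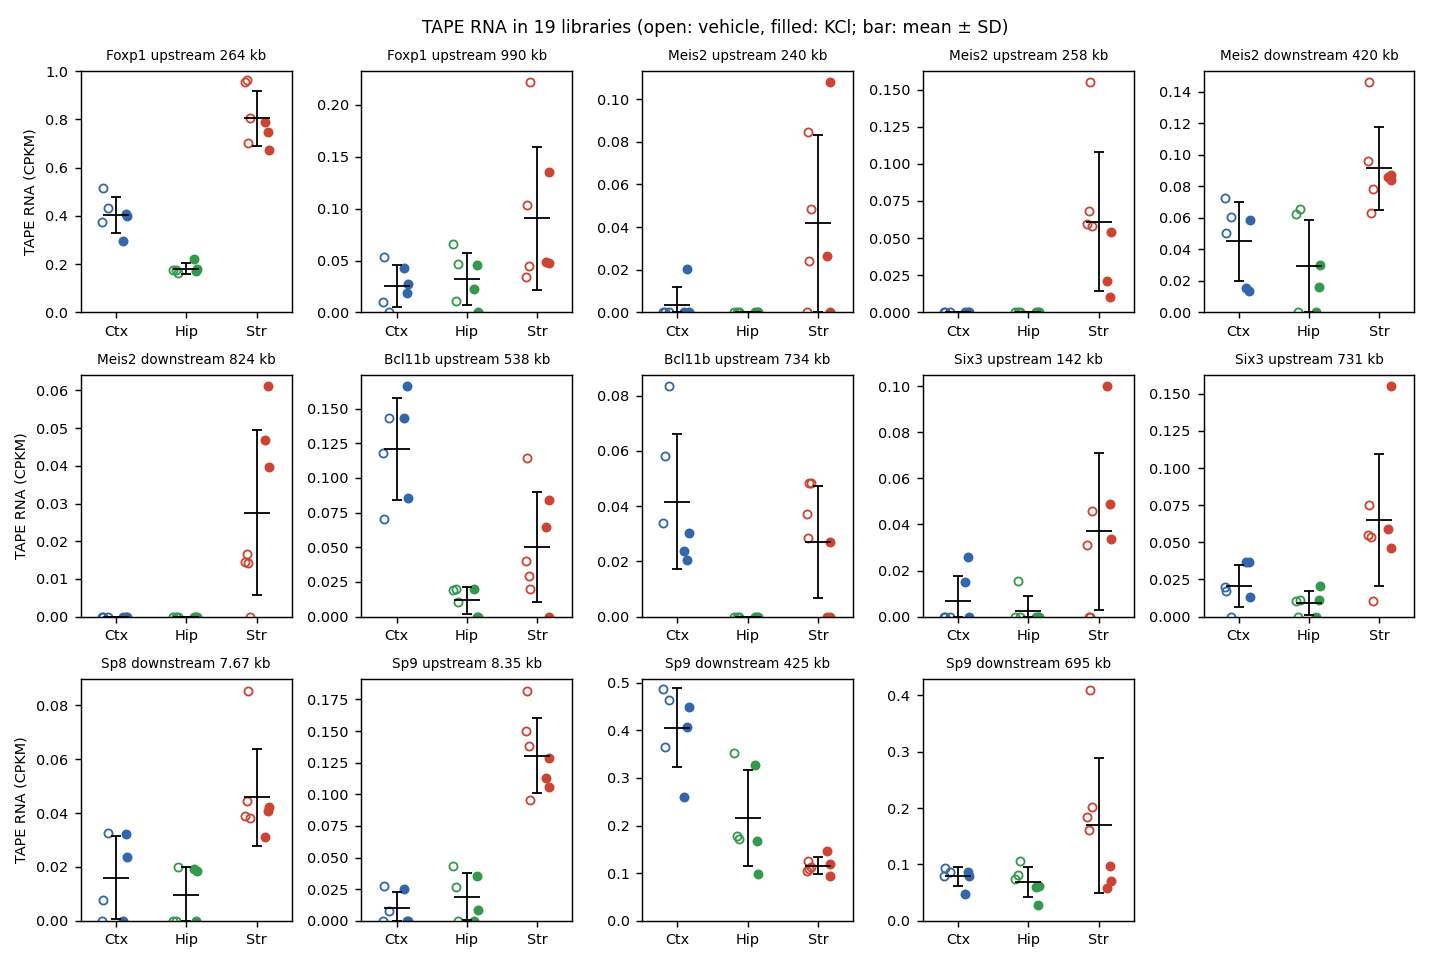
CPKM (vertical axis, linear from 0) of the 14 TAPEs whose RNA depended on region with or without the filter on low values, in cortex (Ctx), hippocampus (Hip) and striatum (Str). Open circles are vehicle and filled circles KCl libraries, and bars give mean ± SD with the lower arm ended at 0. Striatal libraries stand clear of the others at Foxp1 264 kb, Sp9 8.35 kb and Meis2 258 kb upstream, and cortical libraries stand above striatal ones at Sp9 425 kb downstream.

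Distance was described with the deposited Pearson correlations, each over the 19 libraries, which share their libraries between pairs and take no test. An r above 0.5 was found at 21 of the 196 pairs (10.7%, against 5.30% of all pairs) and one below −0.5 at 3. By distance these were 3 of 18 pairs under 100 kb (16.7%, against 7.60% of all pairs at that distance), 9 of 74 from 100 to 500 kb (12.2%, against 5.28%) and 9 of 104 beyond 500 kb (8.65%, against 4.92%). Medians were 0.12, 0.12 and 0.14 in the 3 classes (0.04, 0.00 and −0.01 over all pairs). The share of TAPEs highest in striatum was 44.4% under 100 kb, 50% from 100 to 500 kb and 50% beyond (35.6%, 34.8% and 34.6% of all pairs). Pooled over the 10 loci, striatal means were thus the highest about as often far from the genes as near them. Single loci differed from 100 to 500 kb to beyond it. The share fell from 84.6% (11 of 13 TAPEs) to 38.9% (7 of 18) at Meis2 and from 100% (3 of 3) to 25.0% (1 of 4) at Isl1. At Bcl11b it rose from 22.2% (2 of 9) to 62.5% (5 of 8). The 3 Isl1 TAPEs from 100 to 500 kb held 3, 9 and 10 reads, and none of the 9 at Bcl11b held more than 41. These shares thus rest on few TAPEs and few reads, and their differences were not tested.

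The pairs with r above 0.5 were 7 of Meis2, 5 of Foxp1, 4 of Six3, 2 each of Sp8 and Sp9 and 1 of Bcl11b. The highest were Foxp1 with its 264 kb TAPE (r = 0.976), Sp9 with its 8.35 kb TAPE (0.910), Meis2 with the TAPEs 258 kb upstream and 420 kb downstream (0.725 each) and Sp8 with its 7.67 kb TAPE (0.699). Within a region, r stayed above 0.5 in all 3 for 1 of the 21 pairs, Sp9 with the TAPE 520 kb downstream, and within striatum for 4. For Sp9 with its 8.35 kb TAPE, r was 0.382 within cortex, 0.220 within hippocampus and −0.343 within striatum. For Foxp1 with the 264 kb TAPE it was 0.779 within striatum, 0.184 within cortex and −0.196 within hippocampus. Among TAPEs with a mean of at least 0.05 CPKM, 5 pairs were above 0.5.

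Of the genes paired with each TAPE, the striatal factor had the highest r at 76 of 196 TAPEs (38.8%, against 7.11% of all pairs). That share is not like for like, since these TAPEs had a median of 6 paired genes while the median pair of the table belongs to a TAPE with 21.0, and 33 of the 76 are Ebf1 TAPEs with no other gene in reach.

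**Figure D4:**
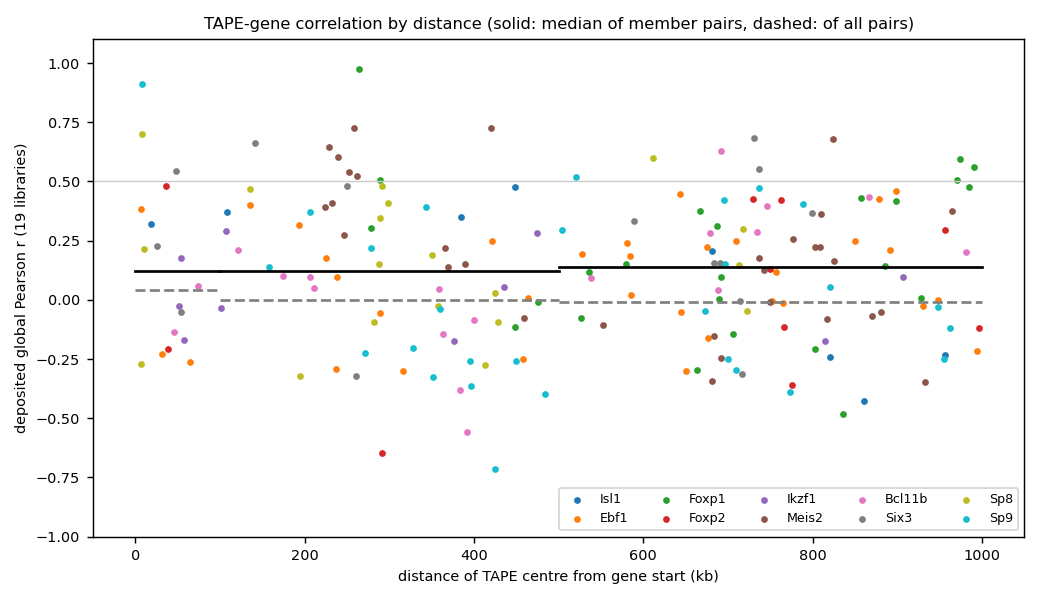
Deposited Pearson r of TAPE and gene RNA over 19 libraries (vertical axis) against distance of the TAPE from the gene start (horizontal axis, kb) for the 196 pairs, coloured by gene. Solid lines are the medians of these pairs in each distance class (0.12, 0.12 and 0.14) and dashed lines those of all pairs of the table. High values occur at 8.35 kb as well as beyond 200 kb, and Sp9 with its 425 kb TAPE is the lowest point.

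The effect of KCl was tested region by region. No TAPE of these loci passed the test for KCl in cortex, hippocampus or striatum (limma, 12 tested in each). At an unadjusted p under 0.05 there was 1 in each region, Isl1 956 kb upstream in cortex, Foxp1 289 kb upstream in hippocampus and Sp9 695 kb downstream in striatum, all lower with KCl (10.4%, 13.3% and 15.1% of all tested TAPEs had such a p). Of all tested TAPEs, 0.802% were called higher and 0.428% lower in striatum, 0.321% higher in cortex and 0.0535% higher in hippocampus. The Sp9 TAPE had a log2 difference of −1.15 ± 0.30 in striatum (adjusted p = 0.0950), and it passed in 3 alternative fits. Every KCl library there was below every vehicle library. The KCl response differed between regions at none of the 12 TAPEs (limma interaction F-test, 0 also at an unadjusted p under 0.05; 0.0535% of all tested TAPEs were called).

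Gene RNA changed more clearly. In the exact permutation test within regions, Foxp1 (adjusted p = 0.00824) and Foxp2 (0.0208) were lower with KCl and Sp9 (0.00864) was higher, while 15.5% of 16136 genes were called lower and 6.26% higher. Foxp1 had 156, 158, 144 and 157 RPM in striatal vehicle libraries and 134, 139 and 134 in KCl libraries, with no overlap. Foxp2 had 149, 143, 138 and 137 against 118, 129 and 122, again without overlap. Sp9 had 15.2, 15.3, 14 and 15 in vehicle and 19.6, 19.5 and 17.8 in KCl libraries, all above the vehicle ones. Every striatal KCl library was below all vehicle ones for 19.4% of genes and above them for 7.88%. The striatal log2 changes were −0.18 ± 0.03, −0.21 ± 0.04 and 0.35 ± 0.06 (limma voom, adjusted p = 2.36e-04, 7.75e-05 and 1.51e-04; 18.8% of 12825 genes were called lower and 7.26% higher). The call of Foxp2 in the permutation test was lost without any single striatal vehicle library (adjusted p from 0.0543 to 0.0556).

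Other changes were called by voom in single regions, where 4.38% of genes were higher and 0.663% lower in cortex, and 4.34% higher and 7.45% lower in hippocampus. Ebf1 was lower in striatum by a log2 of 0.32 ± 0.10 (adjusted p = 0.0223). Meis2 was higher in cortex (0.30 ± 0.06, adjusted p = 0.00558) and in hippocampus (0.20 ± 0.06, 0.0487), and lower in striatum (−0.09 ± 0.02, 0.00800). Bcl11b was lower in hippocampus (−0.24 ± 0.05, 0.00441), as was Foxp1 (−0.23 ± 0.06, 0.0255). The KCl effect differed between regions for Meis2 (limma voom interaction, adjusted p = 2.47e-04) and Bcl11b (0.00641), as it did for 3.47% of genes. Isl1, Six3 and Sp8 were not called in any region.

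Scaling mattered for the small changes in striatum. Centring each library on its median gene raised the striatal KCl changes by 0.09, with 18.5% of genes then called higher and 7.42% lower. Meis2 was then at 0.00 ± 0.02 and Ebf1 at −0.23 ± 0.10, neither called (adjusted p = 0.982 and 0.0998), and Bcl11b (0.15 ± 0.03, adjusted p = 3.18e-04) and Six3 (0.23 ± 0.06, 0.00700) were called higher, while Foxp1, Foxp2 and Sp9 kept their calls and directions.

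**Figure D5:**
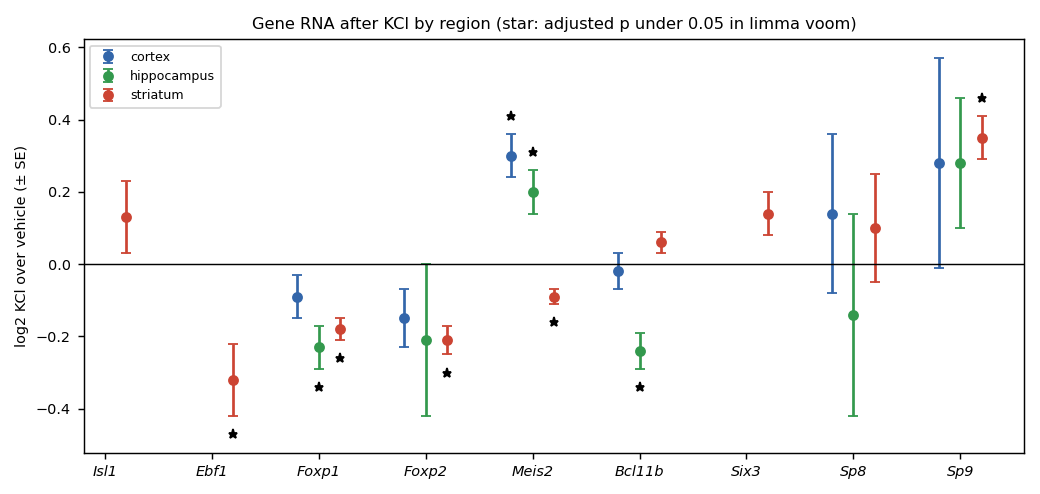
Log2 change of gene RNA with KCl over vehicle (vertical axis, points ± SE from limma voom, not centred) in cortex, hippocampus and striatum. Isl1, Ebf1 and Six3 are shown for striatum only, since they hold at most 29 reads in any other library, and Ikzf1 was not tested. Meis2 lies above 0 in cortex and hippocampus and just below it in striatum (0.00 with centred libraries), and Sp9 lies above 0 in all 3 with the call in striatum.

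Most other genes of the lineage that could be solved had the same direction across regions. Of 24 further genes of striatal lineage and medium spiny neurons, 22 could be solved. Of these, 16 were higher in striatum (28.1% of all genes were) and none was called lower. The median difference of the standardised profiles was 1.89, against −0.07 over all genes. Ppp1r1b (DARPP-32, a signalling integrator of medium spiny neurons) had 115 ± 4.06 RPM in striatum, 5.04 ± 0.510 in cortex and 4.18 ± 0.345 in hippocampus. Rarb, a retinoic acid receptor, had 90.5 ± 6.67, 4.32 ± 0.879 and 5.04 ± 0.760. Rxrg, Nr4a1, Egr1, Mef2c and Tac1 were among those not called. The mean of Rxrg was highest in hippocampus, those of Egr1, Mef2c and Tac1 in cortex, and that of Nr4a1 in striatum. Of 15 genes of pallial neurons 14 could be solved, and 13 were lower in striatum (26.8% of all genes were), such as Neurod6 with 0.0667 ± 0.0529 in striatum and 94.2 ± 6.34 in cortex.

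Markers of other cell types differed between the regions too, and their part in the results above was not tested. Cortical interneuron markers were higher in striatum in 5 of 5 solved (28.1% of all genes were). Of the 6 listed, Sp8 is itself 1 of the factors studied here, and Vip was not solved. Lhx6 had 20.7 ± 1.40 RPM in striatum, 3.83 ± 0.337 in cortex and 9.60 ± 0.727 in hippocampus. Markers of cholinergic neurons were lower in striatum in 4 of 4 solved (26.8% of all genes were), and Lhx8, of the 5 listed, was not solved. Slc5a7 had 0.761 ± 0.218 RPM in striatum, 0.952 ± 0.247 in cortex and 11.9 ± 3.57 in hippocampus. Chat, which makes acetylcholine, was at most 0.176 in any striatal library. Astrocyte markers were lower in 5 of 6. Whole reads could be recovered for 4 of these 6, and the sums cover those 4 only. They were 98.5 to 110.0 RPM in striatum, 398 to 443 in cortex and 413 to 458 in hippocampus. Oligodendrocyte lineage markers were lower in 5 of 7 (179 to 218, against 493 to 539 and 406 to 501), and endothelial and pericyte markers in 3 of 7 (7.05 to 8.85, against 11.8 to 14.9 and 17.5 to 19.9), with Cldn5 at 0 in every striatal library.

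Many genes of the table had the same pattern as these factors. For the 9 separated genes, between 170 (Sp8) and 610 (Foxp2) other genes had a Pearson r above 0.95 with the profile over the 19 libraries, and for Ikzf1 none had. Closest to Isl1 were Casz1, Myl9 and Ppp1r1b (r from 0.994 to 0.995), to Ebf1 Patj, Kcna5 and Rarb, to Foxp1 Efna5, Kcnh5 and Upf3b, and to Foxp2 Rbms1, Inpp4b and Pxdn. Meis2 was closest to Camk2d, Inpp4b and Robo2, Bcl11b to Gucy1b1, Arhgap20 and Elmo1, Six3 to Gad2 and Akap5, and Sp9 to Htr2a, Maf and Gad1. Sp8 was closest to Col4a3, Uba2 and Pth2r at lower values (0.971 to 0.974). Among the factors themselves, Foxp1, Foxp2, Meis2 and Bcl11b correlated with each other at 0.98 to 0.99, Six3 with Isl1 and with Sp9 at 0.99, and the lowest value outside Ikzf1 was 0.88, between Foxp1 and Sp9.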

How the data were processed

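Libraries were 75 bp paired-end, directional and depleted of ribosomal RNA. Per the submitters' processing notes, reads were checked with FastQC, trimmed with Trim Galore 0.4.5 and handled with SAMtools 1.9, and the study's methods name STAR, Rn6 with Ensembl annotation, and SeqMonk. The authors defined TAPEs on pooled libraries and deposited 1 table with RPKM values (called CPKM) per TAPE and library, the distance of each pair, and Pearson correlations, a score from −1 to 1, over all libraries and within each region. The deposited orientation of pairs followed only the coordinate in all 388605 pairs, so sides were taken from the strand. Groups were taken from the sample titles.

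Multiplying CPKM by TAPE length and library total returned read numbers that were whole (within 0.01) for 100.0% of values. TAPE tests used limma 3.58.1 (R 4.3.3) on log2(CPKM + 0.05) for TAPEs with a mean of at least 0.05, with a mean-variance trend, two-sided, all 19 libraries pooled over treatment for region, each region's libraries alone for KCl. A TAPE was selective for striatum if it passed the region F-test with both unadjusted pairwise p-values under 0.05. Gene profiles were solved for 16136 of 17715 symbols (91.1%), with regional correlations where the global ones were too few (5166 genes, with Isl1, Foxp2, Six3 and Ikzf1 among them), and had no scale. Isl1 had 2 near-equal solutions, which were averaged. They were tested by exact permutation (50388 arrangements for region, 14000 within regions for KCl), and adjusted over all 16136 genes. Whole gene reads were then found for 16028 of these genes, and limma voom was run on those with a mean of at least 10 reads. Use of regional correlations, gene reads and voom on genes were choices made after seeing the data. Alternatives were another filter or pseudocount, voom on TAPE reads, centring, each treatment alone, a replicate block and leaving out each library.

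The members and the gene lists were chosen with earlier results of these data known. Named TAPEs were, per gene, the up to 3 with the smallest region p, the nearest, the one with the highest r, and any called for KCl; others named were chosen after their values were seen. The most similar genes were the 3 with the highest profile r. A few items that these rules or lists hold are not reported here. The tests were tried on simulated data. Floors of 3 reads cover counting error only. Other steps ran in Python 3.11.15 (scipy 1.17.1, numpy 2.4.6, pandas 2.3.3), with figures from matplotlib 3.10.9. No Rn6 sequence was used here.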

Additional observations from a re-analysis of the deposited data

Results flagged for a closer look

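In 5 of 93 groups of libraries examined, the highest or lowest library stood far from the others by Dixon's criterion, which chance alone meets in about 1 of 20 groups. At the Meis2 TAPE 420 kb downstream, striatum vehicle replicate 4 was at 0.146 CPKM (striatal median 0.0857). At the Sp9 TAPE 695 kb downstream, striatum vehicle replicate 6 was at 0.410 CPKM (striatal median 0.162) and cortex KCl replicate 2 at 0.0467 (cortical median 0.0827). At the Foxp1 TAPE 264 kb upstream, hippocampus KCl replicate 1 was at 0.223 CPKM (hippocampal median 0.176). For Bcl11b RNA, striatum KCl replicate 1 was at 242 RPM (striatal median 221).

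For 2 genes the KCl effect differed between regions by a test of the difference itself (limma voom interaction F-test). Meis2 had an adjusted p of 2.47e-04, with a log2 change of 0.30 ± 0.06 (SE) in cortex, 0.20 ± 0.06 in hippocampus and −0.09 ± 0.02 in striatum. Centring the libraries brought the striatal value to 0.00 ± 0.02. Bcl11b had an adjusted p of 0.00641, with −0.02 ± 0.05, −0.24 ± 0.05 and 0.06 ± 0.03. The interaction was not refitted with centred libraries.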

How the results depend on the processing

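The 9 genes higher in striatum each kept that call in all 21 alternatives of the permutation test, and the 9 were called by voom too. With profiles from global correlations only, 6 of the 10 genes had a profile, so that setting could not call all 9. The Foxp1 264 kb, Sp9 8.35 kb, Sp9 425 kb and Bcl11b 538 kb TAPEs kept their calls in each of the 28 or 29 alternatives run for them. The count of region-dependent TAPEs, 7, was 12 without the filter on low TAPEs (of 196), 3 at a mean of at least 0.1 CPKM (of 4 tested), and 5 to 7 with a library left out. The count selective for striatum, 5, was 9 without the filter, 2 at 0.1 CPKM, 3 in vehicle libraries, in KCl libraries or with adjusted pairwise p-values, and 3 to 5 with a library left out (3 without cortex KCl replicate 2 or striatum vehicle replicate 8). KCl in striatum called 1 TAPE in place of 0, Sp9 695 kb downstream, at 0.1 CPKM, by voom and in a single fit of all 6 groups. Genes called for KCl rose from 3 to 6 by voom and to 6 by voom with centred libraries, tests within each region, and were 2 or 3 with a library left out. Loci with all striatal libraries on top fell from 2 to 1 of 8 with TAPEs within 100 kb (Sp9) and to 1 without each locus's most read TAPE (Meis2), and were 2 or 3 with a library left out. Pairs with r above 0.5 fell from 21 to 5 among TAPEs of at least 0.05 CPKM, where fewer pairs are left, and were 20 to 26 with a library left out. The calls of Sp9 695 kb downstream and Foxp1 990 kb upstream were also lost without the filter (adjusted p = 0.142 and 0.0598), in KCl libraries alone (0.651 and 0.173) and with the replicate block (0.487 and 0.887), which also ended that of Meis2 420 kb downstream (0.146) and gave one to Foxp1 289 kb upstream (0.0217). That of Sp9 was lost at a pseudocount of 0.01 (0.0512) and with centred libraries (0.0532), and that of Foxp1 990 kb in vehicle libraries alone (0.0998). The replicate block gave 5 region-dependent and 3 striatal TAPEs. Libraries with the same number showed no shared deviation from their group means (correlation −0.0418 to 0.0654). These deviations are partly counting error, so this cannot decide whether the numbers pair cultures. Striatal vehicle and KCl libraries share no number. No result changed direction while called. Depth limits these tests, since 184 of the 196 TAPEs were below the filter.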
